A study of Mus musculus with 6 samples.

Results

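The 39 genes described here encode enzymes that charge transfer RNAs and proteins of the ATF4 amino acid response. They were chosen by name from 23284 genes in the deposited table, with earlier results of these data known. Their counts and medians beside those of all tested genes are therefore only descriptive. They fall into 20 cytosolic aminoacyl-tRNA synthetases, 8 mitochondrial synthetases and 11 genes of the ATF4 response. Those 11 are ATF4 itself, its relative ATF5 and 9 genes known to be induced with them. All 39 had a row in the table. Their RNA was measured in parietal cells, which secrete gastric acid, sorted by flow cytometry from mouse stomach through the red fluorescent protein tdTomato.

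The 3 control libraries came from mice whose genotype is labelled Transgenic-Tom, and the 3 noggin libraries from mice labelled Transgenic-Tom-nog. Both groups carried the tdTomato reporter. The noggin mice carried H+/K+-Cre, H+/K+-Nog and Rosa26-tdTom, so that the promoter of the parietal cell proton pump drove both Cre and noggin, which is secreted and blocks bone morphogenetic proteins. By its title the series is about how this signal maintains parietal cells. Sample titles call the libraries of each group biological replicates. Sources used here give neither the age of the mice nor the number of animals behind a library. The p-values therefore reflect only how these libraries vary, which may in part be technical.

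Aminoacyl-tRNA synthetases join each amino acid to its transfer RNA, and separate nuclear genes serve the cytosol and the mitochondrion for most amino acids. When charged transfer RNA runs short, or when unfolded protein builds up in the endoplasmic reticulum, kinases phosphorylate the initiation factor eIF2. Protein synthesis then falls in general, while translation of the Atf4 messenger RNA rises. ATF4 is a transcription factor that switches on amino acid synthesis and transport, many cytosolic synthetases and, under lasting stress, the factor CHOP (gene Ddit3). It binds, with partners of the C/EBP family, a composite DNA element in the promoters of many such genes. Because ATF4 is controlled largely at translation, its messenger RNA level is not a measure of the protein.

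The composite element was searched for as TGATGNAA, on both strands, in RefSeq promoter windows of GRCm38.p6 that run from 250 bases before to 50 bases after each gene's start. Of the 39 genes, 32 matched an entry by symbol, and Cars, Hars, Lars, Nars, Rars, Vars and Wars did not. The letters were present in 8 of 35 windows of the members (22.9%), against 3.97% of all 32851 windows. They stood in 5 of 13 windows of cytosolic synthetases, in 0 of 9 of mitochondrial synthetases and in 3 of 13 of the ATF4 response. A match is a description of the letters and was not tested as a binding site.

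The stretches below are those of 7 of the 8 members with these letters, shown so that each can be set beside the gene's values. Each is written 5′ to 3′ on the gene's own strand, with the match in capitals (TTNCATCA where it lies on the other strand). The first is the stretch of Chac1 from 250 to 51 bases before the start (chr2:119350992-119351191, plus strand). The others are 30 bases each. They lie at chr6:7693214-7693243 (Asns, minus), chr2:152344028-152344057 (Trib3, minus), chr6:55037960-55037989 (Gars, plus), chr13:49682126-49682155 (Iars, plus), chr15:11399655-11399684 (Tars, minus) and chr4:129189895-129189924 (Yars, plus).
Chac1: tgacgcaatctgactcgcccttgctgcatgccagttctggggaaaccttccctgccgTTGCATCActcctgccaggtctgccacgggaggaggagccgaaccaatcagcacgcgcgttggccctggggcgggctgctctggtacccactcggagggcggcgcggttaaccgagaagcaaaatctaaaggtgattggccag
Asns: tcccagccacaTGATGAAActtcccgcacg
Trib3: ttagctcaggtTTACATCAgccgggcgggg
Gars: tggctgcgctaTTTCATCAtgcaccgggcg
Iars: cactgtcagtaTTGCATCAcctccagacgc
Tars: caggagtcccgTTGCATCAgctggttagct
Yars: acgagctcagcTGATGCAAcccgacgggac

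Values are the authors' FPKM, in which fragment numbers are scaled to transcript length and library size. The depth behind them is unknown, so their number of reads and any detection limit cannot be given. Total FPKM was 595736 to 669124 in controls and 797168 to 1188186 in noggin libraries. Noggin replicate 3 stood apart: it lists 0 for 542 of 10644 tested genes, where the other libraries do so for 19 to 34, and it correlated with the other libraries at a Spearman rho of 0.802 to 0.846 across genes. The transgene checked the labels, with Nog at 0.871 to 1.97 FPKM in control libraries and at 2281 to 2734 FPKM in noggin libraries. Parietal cell markers were abundant in both groups, with Atp4b, a proton pump subunit, at 16877 to 25184 FPKM. So was Pgc of chief cells (37488 to 110445 FPKM).

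A gene was tested when it reached 1 FPKM in at least 3 libraries. Its log2(FPKM + 1) values were compared by limma across all 10644 such genes, and a p under 0.05 after Benjamini-Hochberg adjustment made a call. All adjusted p-values below come from limma, and the added 1 FPKM shrinks fold changes of low genes. Of the 39 members 38 were tested, and 3 were called higher in noggin libraries: Chac1, Ddit3 and Farsb. Across all tested genes 1.75% were called higher and 0.695% lower. No member was called lower by limma. At an unadjusted p under 0.05, 6 of the 38 were higher and 4 lower, against 15.8% and 10.9% of all tested genes. The 6 include Trib3, which was tested only because of its noggin values. In 7 members all noggin libraries lay above all controls, and in 4 all lay below. For all tested genes these shares were 20.3% and 18%, so that separated groups were no more common among the members than elsewhere. A gene that did not pass is not thereby shown to be equal between groups.

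The ATF4 response held 2 of the 3 calls. Chac1 encodes an enzyme that breaks down glutathione and is a known target of ATF4. It was at 13.3, 12.95 and 7.55 FPKM in control replicates 1 to 3 and at 37.6, 29.6 and 70.2 FPKM in noggin replicates 1 to 3. Every noggin library exceeded the highest control by more than 2-fold. Its log2 fold change was 1.87 (SE 0.368, adjusted p = 0.0483), a ratio of mean FPKM of 4.06. Chac1 lies on chromosome 2 from 119351229 to 119354381 in GRCm38.

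Ddit3 encodes CHOP, a C/EBP family factor of prolonged stress. Its values were 31.4, 38.3 and 41.6 FPKM in control libraries and at 92.6, 82.7 and 72.0 FPKM in noggin libraries. The groups were well apart and the spread within each was small. Ddit3 rose (log2 fold change 1.13, SE 0.196, adjusted p = 0.0401), from a mean of 37.1 ± 5.19 to 82.5 ± 10.3 FPKM (SD, n = 3 each). The gene (chromosome 10, 127290774 to 127296288) overlaps the end of Mars, and 2.26% of the 50-base stretches of its transcript are also found in Mars. Mars itself had a mean of 34.0 ± 0.856 FPKM over controls and of 36.5 ± 8.71 FPKM over noggin libraries (SD, n = 3 each). The kit is not stated to keep strand, so reads over the shared bases cannot be assigned.

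These calls depend on few libraries and on the scaling of values. Leaving out any single control library ended all 3 calls (adjusted p = 0.161 to 0.296), leaving out noggin replicate 1 ended those of Chac1 and Ddit3 (adjusted p = 0.0817 and 0.0598), and leaving out noggin replicate 3 ended that of Farsb (adjusted p = 0.0586). With the length correction described below 0 members were called: Chac1 was at 1.54 (adjusted p = 0.11), Ddit3 at 0.38 (adjusted p = 0.397) and Farsb at 0.87 (adjusted p = 0.0858). Where that correction used the median length of a gene's annotated transcripts, an alternative chosen after seeing the data, Ddit3 was at 0.99 and was called (adjusted p = 0.0455). With each library rescaled to the same total none of the 3 was called (log2 fold changes of 1.2, 0.43 and 0.32). A block for the replicate number also left 0 members called, with 1.2% of all tested genes higher and 0.301% lower.

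Atf4 itself was at 107.5, 87.7 and 87.8 FPKM in control libraries and at 185.9, 145.0 and 157.5 FPKM in noggin libraries. The groups did not overlap, but its difference of 0.78 (SE 0.184) fell short of a call (adjusted p = 0.0741). Without noggin replicate 2 it passed (0.86, adjusted p = 0.0299), and after rescaling it was 0.07. Atf5, a related factor also controlled at translation, was too low to be tested. It was at 0.715, 0.816 and 0.732 FPKM in control libraries and at 3.65, 1.26 and 0.521 FPKM in noggin libraries, so noggin replicate 3 was the lowest and replicates 1 and 2 the highest of all 6.

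**Figure D1:**
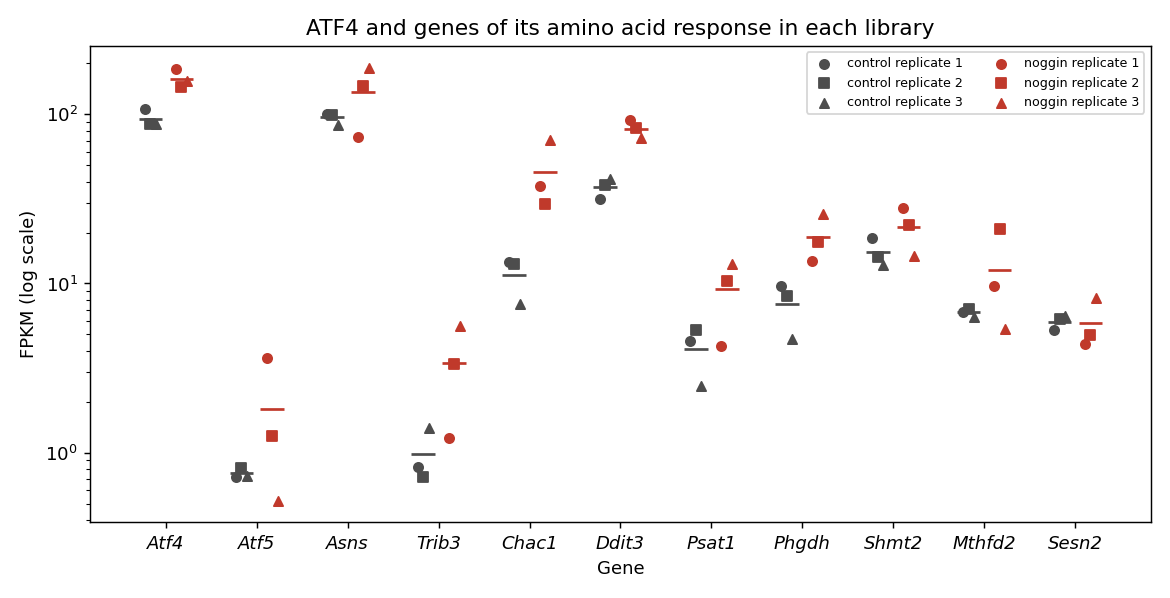
FPKM (log scale) of the 11 genes of the ATF4 response in each library. Grey symbols are controls, red symbols are noggin libraries, the shape gives the replicate and the bar is the group mean. For Atf4, Chac1, Ddit3 and Phgdh all noggin libraries lie above all controls; the other 7 genes overlap.

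Serine synthesis feeds glycine, cysteine and one-carbon units. Phgdh, its first enzyme, was at 9.71, 8.39 and 4.68 FPKM in control libraries and at 13.6, 17.5 and 25.8 FPKM in noggin libraries. Although its groups did not overlap, the log2 fold change of 1.22 did not pass (SE 0.354, adjusted p = 0.101). Of the 50-base stretches of its transcript 63.1% also occur in other genes, Gm7901 above all, so reads may have been divided among copies. Psat1, the aminotransferase of the next step, overlapped between groups, at 4.57, 5.33 and 2.46 FPKM in control libraries and at 4.26, 10.4 and 13.01 FPKM in noggin libraries (0.93, SE 0.451, adjusted p = 0.228). Noggin replicate 1 was within the controls and the other two were above them. Psph, the phosphatase of the last step and not a member, had no overlap, at 3.85 to 5.13 FPKM against 8.79 to 10.3 FPKM (1.01, SE 0.275, adjusted p = 0.0916).

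The mitochondrial one-carbon enzymes varied more between noggin libraries. Shmt2, which makes glycine from serine, was at 18.6, 14.3 and 12.9 FPKM in control libraries and at 28.03, 22.2 and 14.5 FPKM in noggin libraries (0.44, SE 0.297, adjusted p = 0.361). Mthfd2, which oxidizes the one-carbon unit, was at 6.79, 7.10 and 6.37 FPKM and at 9.70, 21.1 and 5.40 FPKM (0.57, SE 0.449, adjusted p = 0.435). Noggin replicate 3 was the lowest of its group for both genes, and for Mthfd2 it was below all controls.

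Asns makes asparagine from aspartate and is a standard readout of ATF4. It was at 100.9, 99.7 and 87.0 FPKM in controls, and at 73.9, 146.3 and 189.0 FPKM in noggin libraries. The noggin libraries thus lay on both sides of the controls, and the log2 fold change of 0.41 did not pass (SE 0.331, adjusted p = 0.451). Trib3, a pseudokinase that feeds back on ATF4, was at 0.819, 0.722 and 1.41 FPKM and at 1.22, 3.33 and 5.60 FPKM (1.02, SE 0.440, adjusted p = 0.186). It reached the 1 FPKM minimum in all noggin libraries but only in control replicate 3, so it was tested only because of its noggin values. Sesn2, a leucine sensor that restrains mTORC1, was at 5.29, 6.13 and 6.40 FPKM and at 4.36, 4.98 and 8.16 FPKM (-0.06, SE 0.319, adjusted p = 0.918).

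Of the 10 tested ATF4 response genes, 2 were called higher, 0 lower and 8 did not pass. At an unadjusted p under 0.05, 5 were higher and 0 lower, while 15.8% of all tested genes were higher at that level. The median log2 fold change of the 10 was 0.85, and that of all tested genes was -0.03. Values were positive for 9 of the 10. Trib3, tested only because of its noggin values, counts in the 5, in the 9 and in the median, where it is no support. Rescaling to equal totals, which moved the median of all tested genes by -0.60, gave a list median of 0.20 and turned Asns, Shmt2 and Mthfd2 negative. In single libraries, the median deviation of the list from the control mean was 0.64, 1.14 and 0.96 in noggin replicates 1, 2 and 3 (log2), and -0.12 to 0.12 in controls. For all tested genes it was -0.08, 0.10 and -0.01 in the noggin libraries.

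Other ATF4 targets and partners were read from a list of 25 genes, of which 20 were tested. Nupr1 and Eif4ebp1 rose, 0 fell and 18 did not pass, with a median log2 fold change of -0.01. Nupr1, a small stress-induced nuclear protein, was at 180.5, 112.7 and 71.8 FPKM in control libraries and at 1023, 747.2 and 833.8 FPKM in noggin libraries. All 3 noggin libraries exceeded the highest control more than 4-fold, and the log2 fold change was 2.91 (SE 0.333, adjusted p = 0.0143). It stayed called with the length correction (2.11, adjusted p = 0.0424), and lost the call without noggin replicate 1 (2.79, adjusted p = 0.0515) and without the minimum of 1 FPKM (adjusted p = 0.0687). Eif4ebp1 encodes a repressor of cap-dependent translation that mTORC1 switches off. Its values were 11.8, 9.79 and 10.2 FPKM against 51.2, 25.4 and 71.2 FPKM (2.0, SE 0.366, adjusted p = 0.0429), with 1.83 and an adjusted p = 0.0834 after the length correction. Leaving out any control library ended this call too (adjusted p = 0.167 to 0.22), as did leaving out noggin replicate 1 (adjusted p = 0.0842). Vldlr, a lipoprotein receptor, lay in the other direction, at 3.98 to 6.11 FPKM against 1.08 to 2.88 FPKM (-1.14, SE 0.355, adjusted p = 0.111).

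The eIF2 control list covers the kinases, the factor itself, its exchange factor eIF2B and the phosphatase. None of its 17 tested members was called by limma, while 3 were higher and 5 lower at an unadjusted p under 0.05, and the median was 0.03. Eif2s2, the beta subunit of eIF2, was at 18.7, 25.99 and 23.5 FPKM in control libraries and at 54.6, 35.6 and 77.9 FPKM in noggin libraries (1.21, SE 0.303, adjusted p = 0.0809). Eif2b1, a subunit of eIF2B, was at 27.99 to 29.7 FPKM against 43.2 to 46.4 FPKM (0.63, SE 0.173, adjusted p = 0.0947). Eif2ak3, the kinase PERK of endoplasmic reticulum stress, was at 17.9 to 20.3 FPKM against 10.4 to 12.8 FPKM (-0.66, SE 0.221, adjusted p = 0.122). Ppp1cb, a catalytic subunit of protein phosphatase 1, was at 32.3 to 42.0 FPKM against 17.9 to 28.3 FPKM (-0.70, SE 0.238, adjusted p = 0.125). None of these 4 genes, named for the lowest p in their list, overlapped between groups. Of the 17 tested, 8 overlapped, and 38.3% of all tested genes did not. Gcn1l1 and Eif2ak4, which act together when uncharged transfer RNA is sensed (Eif2ak4 is the kinase GCN2), were chosen after their values were seen. Gcn1l1 was at 6.35 to 7.90 FPKM against 2.89 to 4.65 FPKM (-0.89, SE 0.305, adjusted p = 0.128). Eif2ak4 was at 5.94, 5.78 and 6.23 FPKM in controls and at 2.99, 3.19 and 0.488 FPKM in noggin libraries (-1.26, SE 0.447, adjusted p = 0.134), again with no overlap. After rescaling Eif2ak3, Ppp1cb and Gcn1l1 were called (adjusted p = 0.0419, 0.0434 and 0.0432) and Eif2ak4 was not (adjusted p = 0.0502), when 7.7% of all tested genes were called lower.

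Cytosolic synthetases did not move together. Of 20, all tested, Farsb rose, 0 fell and 19 did not pass, with 10 positive and 10 negative log2 fold changes and a median of -0.01. At an unadjusted p under 0.05, 1 was higher and 2 were lower. Control levels ran from a mean of 10.7 to 73.1 FPKM between genes and were tight between libraries, with a median coefficient of variation (SD over mean) of 6.78%. In noggin libraries the same median was 29.4%. Noggin replicate 1 lay below the lowest control for 12 of the 20 genes, replicate 2 above the highest control for 13, and replicate 3 above for 7 and below for 8.

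**Figure D2:**
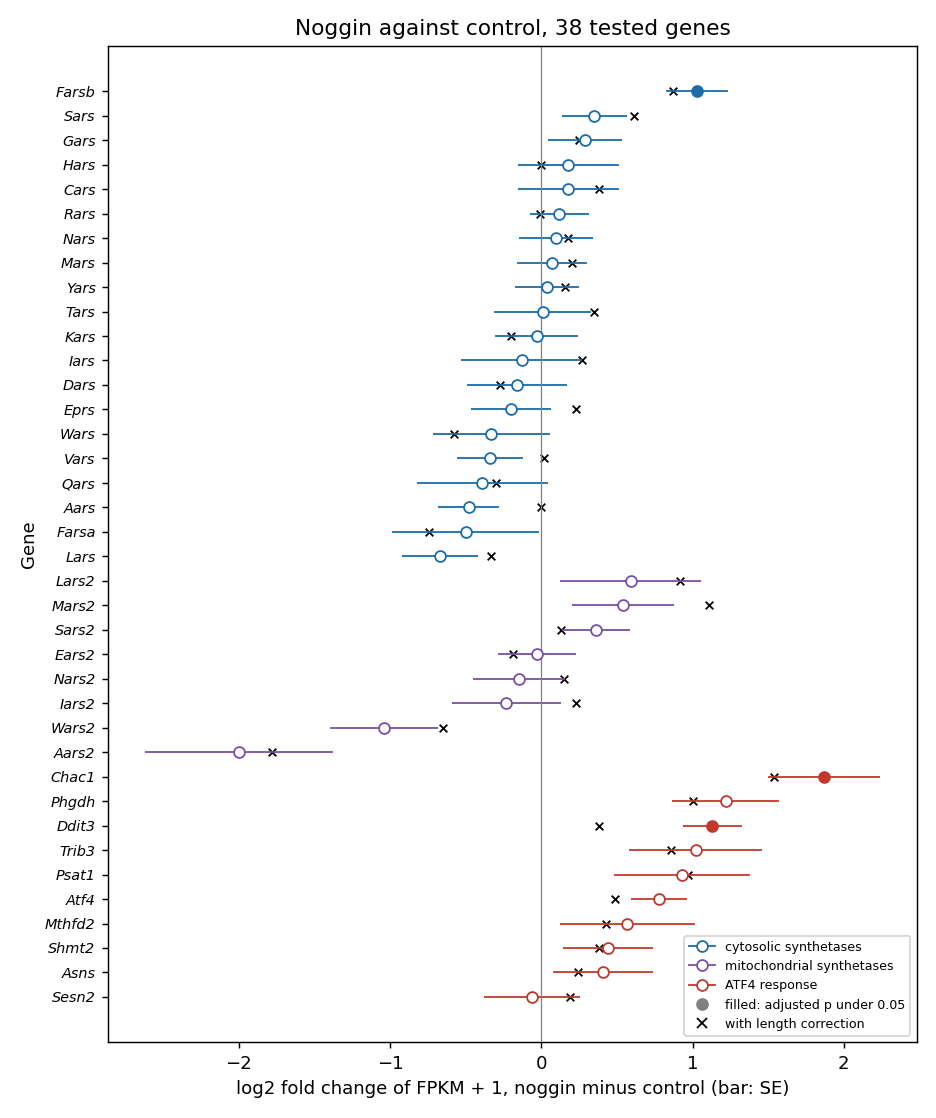
Log2 fold change of FPKM + 1, noggin minus control, for the 38 tested genes, with the SE as a bar. Filled circles passed the test (Farsb, Chac1 and Ddit3), open circles did not, and crosses give the value with the length correction, which takes Ddit3 from 1.13 to 0.38 and leaves Chac1 at 1.54.

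Farsb and Farsa encode the beta and alpha subunits of phenylalanyl-tRNA synthetase. Farsb was at 72.8, 79.9 and 66.7 FPKM in control libraries and at 119.1, 158.8 and 176.5 FPKM in noggin libraries. Every noggin library was above every control, and the log2 fold change was 1.03 (SE 0.203, adjusted p = 0.0492). Farsa did not follow it, at 24.1, 21.3 and 21.6 FPKM and at 21.9, 26.7 and 6.11 FPKM (-0.50, SE 0.486, adjusted p = 0.532). Farsa turned to 0.11 without noggin replicate 3. The ratio of Farsb to Farsa was 3.02, 3.75 and 3.09 in controls and 5.45, 5.94 and 28.9 in noggin libraries. This ratio was chosen after its values were seen and is given without a test. Of the 50-base stretches of Farsb (chromosome 1, 78417975 to 78488897), 10.1% are shared with the neighbouring gene Sgpp2, which was at 15.1, 15.8 and 14.7 FPKM and at 6.196, 12.4 and 24.3 FPKM.

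Lars and Aars had the lowest cytosolic values beside Farsa. Lars, for leucine, was at 12.8, 16.2 and 14.2 FPKM in control libraries and at 7.25, 10.0 and 8.78 FPKM in noggin libraries (-0.67, SE 0.253, adjusted p = 0.148). Aars, for alanine, was at 29.9, 27.6 and 28.5 FPKM and at 19.7, 23.6 and 18.01 FPKM (-0.48, SE 0.203, adjusted p = 0.183). All noggin libraries lay below all controls for both genes. With a principal transcript of 5750 bases Aars is long, and its value was 0.00 (SE 0.172) after the length correction. Of its 50-base stretches 22.4% are also found in Exosc6.

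On the other side were Sars and Gars. Sars, for serine, was at 33.2, 32.0 and 29.8 FPKM in control libraries and at 47.3, 44.3 and 31.6 FPKM in noggin libraries (0.35, SE 0.215, adjusted p = 0.326). Gars, for glycine, which serves both cytosol and mitochondrion, was at 56.5, 63.6 and 63.7 FPKM and at 59.2, 105.6 and 67.4 FPKM (0.29, SE 0.243, adjusted p = 0.462). In both genes the groups overlapped.

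Wars, for tryptophan, is known to be induced by interferon. It was at 39.8, 34.0 and 35.3 FPKM in control libraries and at 25.1, 54.2 and 17.2 FPKM in noggin libraries, so the highest and the lowest of the 6 were noggin libraries (-0.33, SE 0.386, adjusted p = 0.607). Interferon-stimulated genes had 7 of 10 tested members called higher, as were 1.75% of all tested genes. Of the 10, Ifit1, Ifit3 and Iigp1 were under 1 FPKM in control replicates 1 and 3. They were tested only because of their noggin values, so their part in the counts given here is no support. The median deviation of the list from the control mean was 3.84, 2.44 and 3.93 in noggin replicates 1 to 3. That list was above the highest control in all 3 noggin libraries for 10 of 10 tested genes, as were 20.3% of all tested genes. Wars was above the controls in replicate 2 and below them in replicates 1 and 3.

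The remaining 13 cytosolic synthetases were Cars, Dars, Eprs, Hars, Iars, Kars, Mars, Nars, Qars, Rars, Tars, Vars and Yars. Together with the mitochondrial Ears2, Iars2 and Nars2, these 16 genes had log2 fold changes between -0.39 and 0.18 (adjusted p = 0.335 to 0.987). All 16 overlapped between groups. Among them Iars, for isoleucine, illustrates the spread, at 22.9, 23.2 and 23.0 FPKM in control libraries and at 12.6, 17.4 and 41.4 FPKM in noggin libraries. Tars, for threonine, was at 33.2, 33.1 and 30.5 FPKM in control libraries and at 24.6, 55.0 and 25.2 FPKM in noggin libraries. These 2 were chosen after their values were seen. The synthetases with the composite element in their window (Aars, Gars, Iars, Tars and Yars) overlapped between groups except for Aars, whose noggin libraries all lay below the controls without passing the test.

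Of the cytosolic synthetases, 8 (Dars, Eprs, Iars, Kars, Lars, Mars, Qars and Rars) belong to the multi-synthetase complex, whose scaffold is made of Aimp1, Aimp2 and Eef1e1. None of the 8 was called by limma, with 0 higher and 1 lower at an unadjusted p under 0.05 and a median of -0.15. The 12 outside the complex had a median of 0.07. Scaffold genes were read with trans-editing factors and other partners, of which 0 of 9 tested were called, 5 were higher and 0 lower at an unadjusted p under 0.05, and the median was 0.53, falling to 0.04 with the length correction. Eef1e1 was at 16.0 to 24.0 FPKM in control libraries and at 26.7 to 72.3 FPKM in noggin libraries (1.05, SE 0.364, adjusted p = 0.128). Aimp2 was at 30.6 to 33.2 FPKM and 37.4 to 57.5 FPKM (0.62, SE 0.219, adjusted p = 0.134). The trans-editing factors Aarsd1 and Prorsd1, which clear mischarged transfer RNA, had log2 fold changes of 0.86 (SE 0.252, adjusted p = 0.101) and 1.03 (SE 0.354, adjusted p = 0.128). Noggin libraries of these 4 genes, named for the lowest p in the list, were all above the controls. This held for 5 of the 9 tested and for 20.3% of all tested genes.

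Mitochondrial synthetases also went in both directions. None of 8 was called by limma, 0 were higher and 2 lower at an unadjusted p under 0.05, and the median was -0.09. Aars2, for alanine, was at 12.2, 9.40 and 11.2 FPKM in control libraries and at 3.71, 4.38 and 0.0281 FPKM in noggin libraries. All noggin libraries were far below the controls and replicate 3 was close to 0. The log2 fold change of -2.0 did not pass (SE 0.620, adjusted p = 0.111). Without noggin replicate 3 it was smaller and passed (-1.24, adjusted p = 0.0365), and it also passed after rescaling (-2.49, adjusted p = 0.0423). Wars2, for tryptophan, was at 2.53, 3.08 and 3.17 FPKM and at 1.52, 1.24 and 0.222 FPKM (-1.04, SE 0.360, adjusted p = 0.129). Its groups did not overlap, and it passed after rescaling (-1.47, adjusted p = 0.0457). Rescaling called 7.7% of all tested genes lower.

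Mars2, for methionine, and Sars2, for serine, were higher in all noggin libraries than in any control without passing the test. Mars2 was at 2.15, 2.36 and 2.38 FPKM and at 2.60, 3.56 and 5.76 FPKM (0.54, SE 0.336, adjusted p = 0.322). Sars2 was at 12.9, 12.0 and 11.6 FPKM and at 16.6, 14.1 and 17.1 FPKM (0.36, SE 0.224, adjusted p = 0.327).

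Lars2, for leucine, was listed far above every other synthetase, at 566.4, 699.3 and 730.9 FPKM in control libraries and at 2088, 531.5 and 893.6 FPKM in noggin libraries (0.59, SE 0.463, adjusted p = 0.430). The other 7 mitochondrial synthetases had control means of 2.30 to 36.7 FPKM. Rn45s, the ribosomal RNA precursor, was high and low in the same noggin libraries, at 4.29, 0.491 and 1.55 times its control mean where Lars2 was at 3.14, 0.799 and 1.34 times. The part of ribosomal RNA in the Lars2 value was not tested.

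A further 12 mitochondrial genes of aminoacylation were tested. None was called by limma, with 0 higher and 2 lower at an unadjusted p under 0.05 and a median of 0.03. Vars2, for valine, was at 15.5, 9.87 and 11.4 FPKM in control libraries and at 2.23, 7.15 and 0.0314 FPKM in noggin libraries (-2.12, SE 0.690, adjusted p = 0.119), again with replicate 3 near 0. Hars2, for histidine, was at 10.5 to 13.4 FPKM against 6.36 to 9.09 FPKM (-0.62, SE 0.266, adjusted p = 0.186). Gatc and Qrsl1, subunits of the amidotransferase that makes glutaminyl-tRNA in mitochondria, were higher in all noggin libraries, at 0.77 (SE 0.370, adjusted p = 0.222) and 0.35 (SE 0.212, adjusted p = 0.313).

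**Figure D3:**
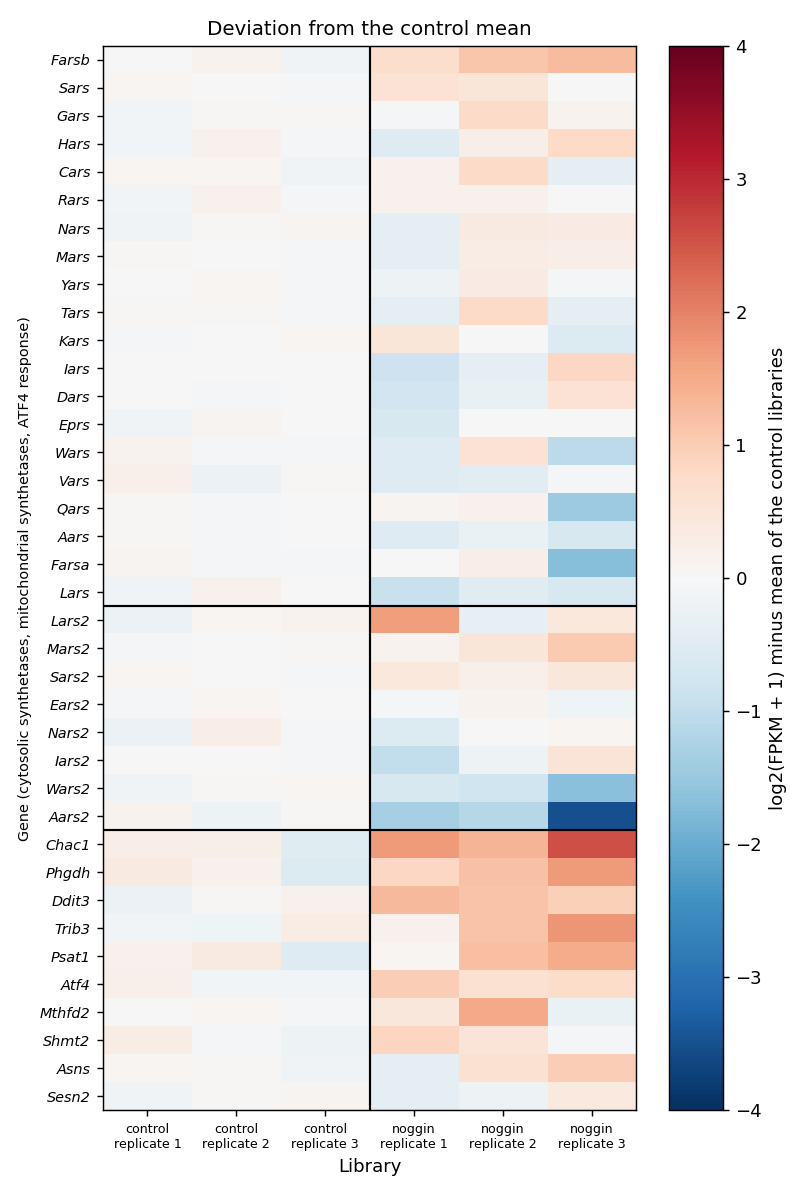
Deviation of log2(FPKM + 1) from the mean of the 3 control libraries, for the 38 tested genes (rows, in the 3 groups) and 6 libraries (columns). Red is above and blue below the control mean. Controls are pale, Chac1, Ddit3 and Farsb are red in all noggin columns, and Aars2 and Wars2 are blue in all of them.

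Fold changes followed transcript length. Across 10541 tested genes, which are not independent replicates, the Spearman correlation of log2 fold change with the length of the principal transcript in GENCODE was -0.544, and across the 38 tested members it was -0.488. The 863 tested genes under 1000 bases had a median of 0.81 (quartiles 0.46 and 1.11), and Ddit3, with 890 bases and a value of 1.13, was just above the upper quartile. For 1000 to 2000 bases the median was 0.42 and the upper quartile 0.75, against 1.87 for Chac1 (1637 bases), 1.22 for Phgdh (1893 bases) and 0.78 for Atf4 (1725 bases). Farsb, with 2036 bases, belongs to a class with a median of 0.00 and an upper quartile of 0.36. The tested ATF4 response genes had a median length of 2021 bases and the cytosolic synthetases of 2854.5 bases.

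A correction took out, library by library, the trend of values with log length. After it the median of the ATF4 response was 0.46, with 10 of 10 values positive, and that of cytosolic synthetases was 0.09, with 13 of 20 positive. Mitochondrial synthetases were at 0.14. For all tested genes the median was -0.02. The correction called 0 members, and 0.598% of all tested genes higher and 0.199% lower.

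**Figure D4:**
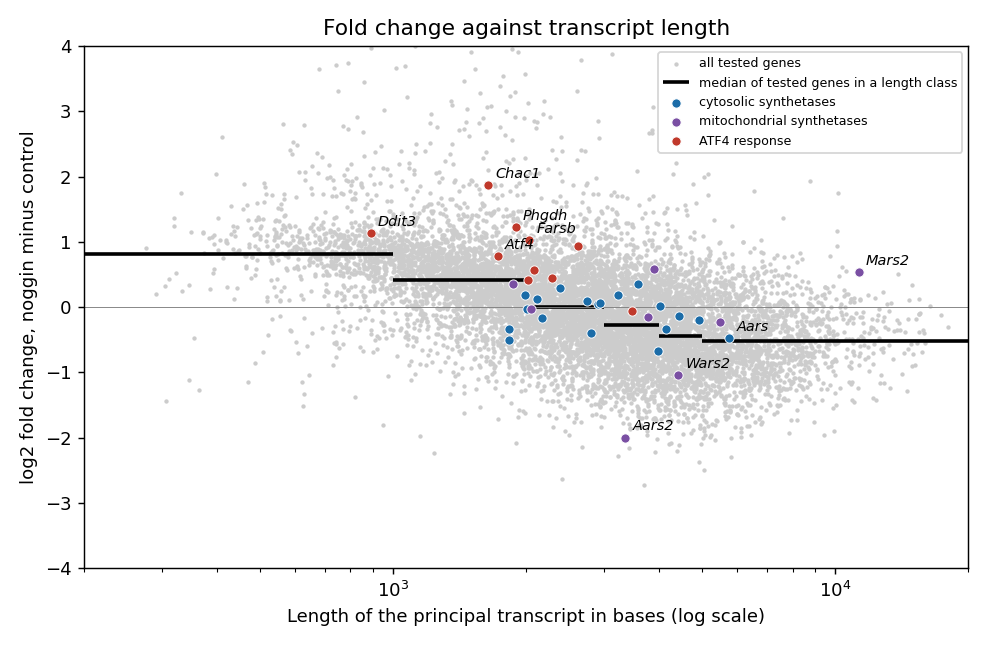
Log2 fold change, noggin minus control, against the length of the principal transcript (log scale). Grey points are tested genes (102 of 10541 lie outside the axes), black bars are medians by length class, from 0.81 under 1000 bases to -0.52 at 5000 bases or more, and coloured points are the members. Ddit3 lies closer to the bar of its class than Chac1, Farsb and Aars2 lie to theirs.

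Markers of other cell types differed in how far they separated the groups. Beside the counts of calls below, 1.75% of all tested genes were called higher and 0.695% lower. Mucous neck cell markers (4 of 4 called higher) summed to 1929 to 2490 FPKM in control libraries and to 8573 to 21968 FPKM in noggin libraries. Enteroendocrine markers (2 of 5 tested called higher, 0 lower) summed to 431.7 to 2598 FPKM and 1859 to 28381 FPKM. The highest of these sums were mostly Gast. It was at 202.9, 386.7 and 2226 FPKM in control libraries and at 22.3, 26026 and 14693 FPKM in noggin libraries. Leukocyte markers, of which 4 of 12 could be tested, summed to 6.40 to 8.09 FPKM and 32.8 to 276.9 FPKM. Of those 4, Fcer1g, Tyrobp and Laptm5 were under 1 FPKM in every control and were tested only because of their noggin values, so their tests are not counted. Chief cell markers (0 of 4 called by limma, and 0 at an unadjusted p under 0.05) summed to 38099 to 67082 FPKM and 42988 to 112567 FPKM. Pit cell markers (0 of 4 called by limma, 0 higher and 1 lower at an unadjusted p under 0.05) summed to 9170 to 13966 FPKM and 9098 to 23640 FPKM. Stromal and endothelial markers summed to 1.04 to 1.88 FPKM and 1.38 to 7.32 FPKM, with Cdh5 at 0 throughout. Parietal cell markers (3 of 8 called lower, 0 higher) summed to 33385 to 40243 FPKM and 31643 to 34856 FPKM. This sum is mostly Atp4a, with means of 14422 and 6275 FPKM, and Atp4b, with means of 19814 and 23024 FPKM. All noggin libraries lay below all controls for 5 of the 8 (18% of all tested genes). They lay above for Atp4b and Car2 (20.3% of all tested genes). The part of these cell types in the values of Chac1, Ddit3, Farsb, Nupr1 and Eif4ebp1 was not tested. In bulk libraries fewer cells of a type and less RNA per cell cannot be told apart.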

How the data were processed

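RNA from 6 libraries of sorted mouse parietal cells was compared. Per the labels' protocols, a low-input SMART-Seq V3 kit and 50-base single-end reads (HiSeq2500) were used. The authors deposited FPKM per gene and library. The submitters' processing notes name mm10, bcl2fastq and FastQC 0.10.0. Which aligner, quantifier or annotation was used is not given in the sources used here. Groups came from sample titles. Values were transformed to log2(FPKM + 1), genes with at least 1 FPKM in 3 libraries were kept, and groups were compared with limma 3.58.1 in R 4.3.3 (mean-variance trend, two-sided, group as the only term, Benjamini-Hochberg adjustment over 10644 genes). The fit was tested on simulated data, in which it missed most of the smaller changes that had been put in.

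Symbols were matched to GENCODE M21 (GRCm38, the build of mm10): 20911 by symbol, 1914 by an older symbol and 459 not at all. Length is that of the longest principal transcript, and 10541 tested genes (99%) had one. The correction for length subtracts a loess curve of each library's deviation on log2 length. Promoter windows are from RefSeq. Of the 8 members with the motif, the stretch of 1 is not reported here.

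Per-library values are given for all ATF4 response genes, called members, the 5 highest and 5 lowest other synthetases and Wars. From each further list up to 4 genes were named by rule, called ones first and then by lowest unadjusted p. These have values per library, ranges or only a fold change. The members and lists were chosen with earlier results of these data known. Alternatives covered the pseudocount, the filter, scaling, length, the trend, a replicate block and leaving out each library.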

Additional observations from a re-analysis of the deposited data

How the results depend on the processing

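Under 17 alternatives the log2 fold changes of Chac1, Ddit3 and Farsb stayed positive, at 1.2 to 2.13, 0.38 to 1.23 and 0.32 to 1.19. They were called in 4, 5 and 3 of the 17, with adjusted p from 0.0227 to 0.236, 0.0247 to 0.443 and 0.034 to 0.406. The number of members called higher, 3 as reported, was 3 with a minimum of 5 FPKM, 1 with a pseudocount of 0.1, with quantile normalization and with the length correction based on the median annotated transcript (an alternative chosen after seeing the data), and 0 with a pseudocount of 0.01, no filter, rescaling, the length correction, no mean-variance trend, the replicate block and the replicate block with the length correction. Leaving out 1 library at a time gave 0 to 4 higher and 0 to 1 lower. Rescaling gave 2 lower (Aars2 and Wars2), when 7.7% of all tested genes were called lower. The causes were not tested.

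List medians moved most with rescaling, to -0.70 (cytosolic), -0.73 (mitochondrial) and 0.20 (ATF4 response). The ATF4 response was at 0.46 with the length correction, with and without the replicate block, and mitochondrial synthetases were at 0.22 with the median transcript length. Leaving out single libraries gave medians of -0.10 to 0.15 (cytosolic), -0.17 to 0.05 (mitochondrial) and 0.70 to 0.92 (ATF4 response).

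Of 47 named genes 30 kept their sign in each alternative that gave them a value; the minimum of 5 FPKM did so for 39. Rescaling reversed Asns (-0.30), Shmt2 (-0.23), Mthfd2 (-0.06), Gars (-0.42), Sars (-0.35), Sars2 (-0.31), Lars2 (-0.12), Qrsl1 (-0.34), Aimp2 (-0.08), Eif2b1 (-0.07), Slc3a2 (-0.38) and Slc7a1 (-0.24). Quantile normalization reversed Gars (-0.02), Lars2 (-0.19), Slc3a2 (-0.03) and Sesn2 (0.04). The length correction, with and without the replicate block, reversed Aars (0.00), Deptor (0.15) and Sesn2 (0.19), and the median transcript length gave Sesn2 0.36. With single libraries left out, Sesn2 ran from -0.29 to 0.10, Farsa from -0.87 to 0.11 and Wars from -0.78 to 0.03.

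Same-numbered libraries of the groups correlated in their deviations from the group means at 0.105, -0.141 and 0.00519. With 3 libraries per group these values cannot decide whether the numbers pair the libraries, and the reported fit used no pairing. The replicate block gave 0 members called. Over all tested genes it gave 128 higher and 32 lower, against 186 and 74 in the reported fit. Depth is unknown and limits every low value, among them Trib3, Atf5, Wars2 and the near-0 values of noggin replicate 3.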

Other observations

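Genes that regulate mTORC1, mostly in response to amino acids, had negative log2 fold changes in 8 of 10 tested cases. This kinase drives protein synthesis when amino acids are plentiful. The median log2 fold change was -0.52 against -0.03 for all tested genes. The list mixes genes that activate and genes that inhibit mTORC1, so its median gives no direction for the pathway. None of the 10 was called by limma. At an unadjusted p under 0.05, 0 were higher and 3 lower, namely Rragc, Rragd and Depdc5. Rragd and Depdc5 were tested only because of their control values, so their part in this count is no support. Rragc, a GTPase that brings mTORC1 to the lysosome, was at 37.0, 45.9 and 45.0 FPKM in controls and at 19.6, 32.1 and 25.2 FPKM in noggin libraries (-0.73, SE 0.235, adjusted p = 0.117). Its partner Rragd was at 1.44 to 2.53 FPKM and 0.401 to 1.09 FPKM (-0.85, SE 0.310, adjusted p = 0.139). Depdc5, a subunit of the GATOR1 inhibitor, was at 1.45 to 1.80 FPKM and 0.342 to 0.718 FPKM (-0.71, SE 0.274, adjusted p = 0.154), and was tested only because of its control values. Deptor, an mTOR inhibitor, was at 33.6 to 36.5 FPKM and 23.3 to 29.3 FPKM (-0.38, SE 0.190, adjusted p = 0.236). All noggin libraries lay below all controls for these 4 genes, which were named for the lowest p in the list. Of the 10 tested, 6 overlapped. Over all tested genes 18% lay below in this way. Correcting for length gave a median of -0.15 over the list, 0.15 for Deptor and -0.70 for Rragc. Rragc passed without noggin replicate 2 (-0.90, adjusted p = 0.0376) and after rescaling (-1.42, adjusted p = 0.0431). Slc38a2, described next, passed after rescaling (-1.43, adjusted p = 0.0437), which called 7.7% of all tested genes lower.

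Amino acid transporters known to be induced by ATF4 showed no common direction. Of 8 tested, 0 were called by limma, 0 were higher and 1 was lower at an unadjusted p under 0.05, and the median was 0.09. Slc38a2, a transporter of small neutral amino acids, was at 54.3, 63.9 and 56.5 FPKM in controls and at 25.2, 46.0 and 35.5 FPKM in noggin libraries (-0.73, SE 0.247, adjusted p = 0.124). Slc3a2, the heavy chain of several amino acid exchangers, was at 68.4 to 70.0 FPKM and 74.4 to 97.1 FPKM (0.33, SE 0.177, adjusted p = 0.268), and turned to -0.38 with rescaling. Slc43a1, a transporter of large neutral amino acids, was at 0.264 to 0.992 FPKM and 1.07 to 2.70 FPKM (0.77, SE 0.343, adjusted p = 0.197). It was under 1 FPKM in every control and was tested only because of its noggin values. Slc7a1, a transporter of cationic amino acids, overlapped between groups (0.32, SE 0.347, adjusted p = 0.580).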
